A study of Mus musculus with 8 samples.

Results

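Oxidative phosphorylation genes encode the respiratory chain and the ATP synthase of mitochondria. They were picked by gene name from the array annotation: the Nduf genes, Sdha to Sdhd, the Uqcr genes, Cyc1, Cycs, the Cox4 to Cox8 genes and the Atp5 genes. The names took in 91 genes on 132 probes. A probe was used where some group had it well above background on both of its arrays, and the brightest such probe stood for its gene. That left 87 genes, of 13817 genes tested in all, and each of the 87 was well above background on all 8 arrays with no saturated spot. The other genes, Cox4i2, Cox7b2, Cox8b and Cox8c, are tissue-restricted isoforms of cytochrome c oxidase subunits, and their probes did not pass. By role, 40 of the 87 belonged to complex I (4 of them assembly factors), 4 to complex II, 10 to complex III with cytochrome c, 15 to complex IV and 15 to complex V. The remaining 3, Cox4nb (now Emc8), Atp5s (now Dmac2l) and Atp5sl (now Dmac2), matched by name only.

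Total RNA came from Ba/F3 cells, a mouse pro-B line that normally needs IL3 to grow. The FLT3/ITD cells carried FLT3 with an internal tandem duplication, which makes this receptor tyrosine kinase active without its ligand, in 1 of 2 forms named N51 and N78. The comparison cells carried wild type FLT3. All cells had been kept in serum with IL3 and were then washed and held for 4 h in medium with albumin, with 100 ng/ml recombinant mouse Cxcl12 or with none. Cxcl12 is a chemokine that acts through the receptor Cxcr4. The 4 groups, FLT3/ITD with Cxcl12, FLT3/ITD without it, wild type FLT3 with Cxcl12 and wild type FLT3 without it, had 2 one-colour arrays each. The labels do not give the vector, its promoter or whether each line was 1 clone, and they do not say whether the 2 samples of a wild type group were separate cultures. P-values then measure only the spread between these samples.

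The arrays lay on 2 slides, set 1 and set 2, with one array of every group on each. Set 1 held the N51 cells and set 2 the N78 cells, so the ITD form and the set cannot be told apart, nor can the group and the array's position on the slide, which was the same on both. The share of probes well above background ran between 49.1% and 55.0% over the 8 arrays. Of the markers listed for pro-B cells, Cd79a, Cd79b, Vpreb1, Vpreb2, Ptprc, Il3ra and Csf2rb2 were well above background on all 8 arrays. Cd24a, Igll1, Ebf1, Pax5 and Rag1 of that list were so on 0 of 8 arrays. Markers of other cells were well above background on all 8 arrays too. They were Cd3d and Cd3e of T cells, Hba-a1 of erythroid cells, Cd68 and Adgre1 of monocytes and macrophages, and Ckm of muscle. So the markers seen are not those of pro-B cells alone. Levels are given as log2 intensity minus that array's 75th percentile, and differences are log2 values from limma, fitted over all 8 arrays with the set as a block, with the standard error (SE). The threshold was an adjusted p of 0.05 (Benjamini-Hochberg, over all genes tested), and "rose" and "fell" are used of genes under it alone. In such bulk samples, fewer cells of a kind and less RNA per cell cannot be told apart.

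Complexes I and II take electrons from NADH and from succinate and pass them to ubiquinone. Complex III hands them to cytochrome c, complex IV passes them on to oxygen, and complex V makes ATP with the proton gradient that complexes I, III and IV build. Most subunits are encoded in the nucleus and a small set by mitochondrial DNA. Nuclear respiratory factors, the coactivator PGC-1 and MYC are known regulators of the nuclear set, which is generally high in growing blood cells.

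The first question was whether these mRNAs differ between FLT3/ITD and wild type FLT3 cells. Averaged over cells with and without Cxcl12 (4 arrays against 4), cytochrome c, cytochrome c1 and 2 accessory subunits of complex I were higher in FLT3/ITD cells, by 1.55 to 1.88-fold. Most of the other members lay slightly above 0, with a median log2 difference of 0.29 over the 87, against -0.01 over all genes tested. The difference was positive in 77 of 87 members (88.5%), against 49.3% of all genes tested. In the test 4 of 87 members rose (4.6%) and 0 fell, where 3.58% of all genes tested rose and 2.55% fell, so the share that rose was close to that of all genes. At an unadjusted limma p under 0.05, 29 members were higher (33.3%, against 14.1% of all genes) and 0 were lower (against 12.0%). The 4 calls were lost without the filter on dim probes, without the intensity trend and without the block on the set (0 members each). With normexp background correction 3 other members passed and the median was 0.67, and with quantile normalization it was 0.17. The normexp correction had an outlying background estimate on the wild type FLT3+Cxcl12 array of set 2, -1149 units of intensity. With foreground minus local background plus 50, an alternative chosen after seeing the data, the median was 0.31.

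**Figure D1:**
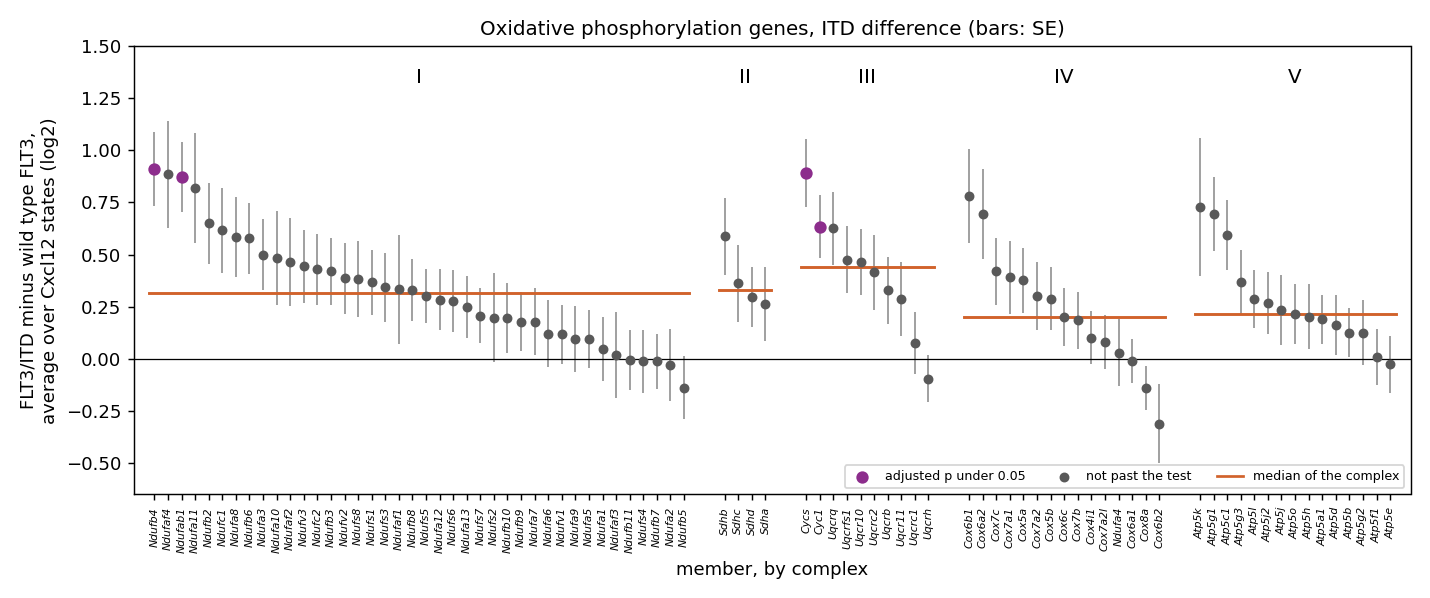
Average log2 difference between FLT3/ITD and wild type FLT3 cells (4 arrays against 4) for the members of complexes I to V, sorted within each complex. Points are limma estimates with bars of 1 SE, purple points passed at an adjusted p under 0.05, and orange lines are the median of each complex. The medians run between 0.20 in complex IV and 0.44 in complex III, and the purple points are Ndufb4 and Ndufab1 in complex I and Cycs and Cyc1 in complex III.

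Cycs encodes cytochrome c, the soluble carrier between complexes III and IV, which also starts caspase activation when it leaves mitochondria. Its probe lies at chromosome 6, 50515255 to 50515314 (mm9). In set 1 Cycs had 6.43 in FLT3/ITD cells with Cxcl12 against 5.65 in wild type FLT3 cells with Cxcl12, and 5.80 against 5.36 without it. In set 2 it had 5.45 against 4.45 with Cxcl12 and 5.18 against 3.84 without it. The FLT3/ITD array was the higher one in all 4 pairs of the same set, and the FLT3/ITD and wild type FLT3 values overlapped only across the sets. Cycs rose by 0.89 (SE 0.16, limma adjusted p = 0.0192), a 1.85-fold difference. Its other probes, both above background on all 8 arrays, gave 0.69 (adjusted p = 0.0638) and 0.70 (adjusted p = 0.0863). These are from a separate limma fit by probe, with p adjusted over the probes kept and not over genes.

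Cyc1 encodes cytochrome c1, the haem protein of complex III that reduces cytochrome c. Its probe lies at chromosome 15, 76175938 to 76175997 (mm9). In set 1 Cyc1 had 5.18 in FLT3/ITD cells with Cxcl12 against 4.42 in wild type FLT3 cells with Cxcl12, and 4.63 against 4.49 without it. In set 2 the values were 5.85 against 5.10 with Cxcl12 and 5.68 against 4.79 without it. The direction was the same in all 4 pairs, and the N51 pair without Cxcl12 was the closest. Cyc1 rose by 0.63 (SE 0.15, limma adjusted p = 0.0443), a 1.55-fold difference.

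Ndufab1 encodes the mitochondrial acyl carrier protein, which serves both as a subunit of complex I and in fatty acid and lipoate synthesis. Its probe lies at chromosome 7, 129235131 to 129235190 (mm9). In set 1 Ndufab1 had 5.36 in FLT3/ITD cells with Cxcl12 against 4.23 in wild type FLT3 cells with Cxcl12, and 4.62 against 4.47 without it. In set 2 it had 5.07 against 3.83 with Cxcl12 and 4.98 against 4.00 without it. The 4 FLT3/ITD values all lay above the 4 wild type FLT3 values. Ndufab1 rose by 0.87 (SE 0.17, limma adjusted p = 0.0232), a 1.83-fold difference. In the fit by probe its other probe gave 0.74 (adjusted p = 0.0522). It was the one member at least 2-fold higher in both sets in a comparison of 2 groups, that with Cxcl12.

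Ndufb4 is an accessory subunit of the membrane arm of complex I, with its probe spanning chromosome 16, 37647795 to 37649148 (mm9). In set 1 Ndufb4 had 4.86 in FLT3/ITD cells with Cxcl12 against 3.27 in wild type FLT3 cells with Cxcl12, and 3.70 against 3.46 without it. In set 2 it had 5.41 against 4.47 with Cxcl12 and 5.28 against 4.41 without it. Within each set both FLT3/ITD values lay above both wild type FLT3 values, while values of the 2 sets overlapped. Ndufb4 rose by 0.91 (SE 0.18, limma adjusted p = 0.0249), a 1.88-fold difference.

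**Figure D2:**
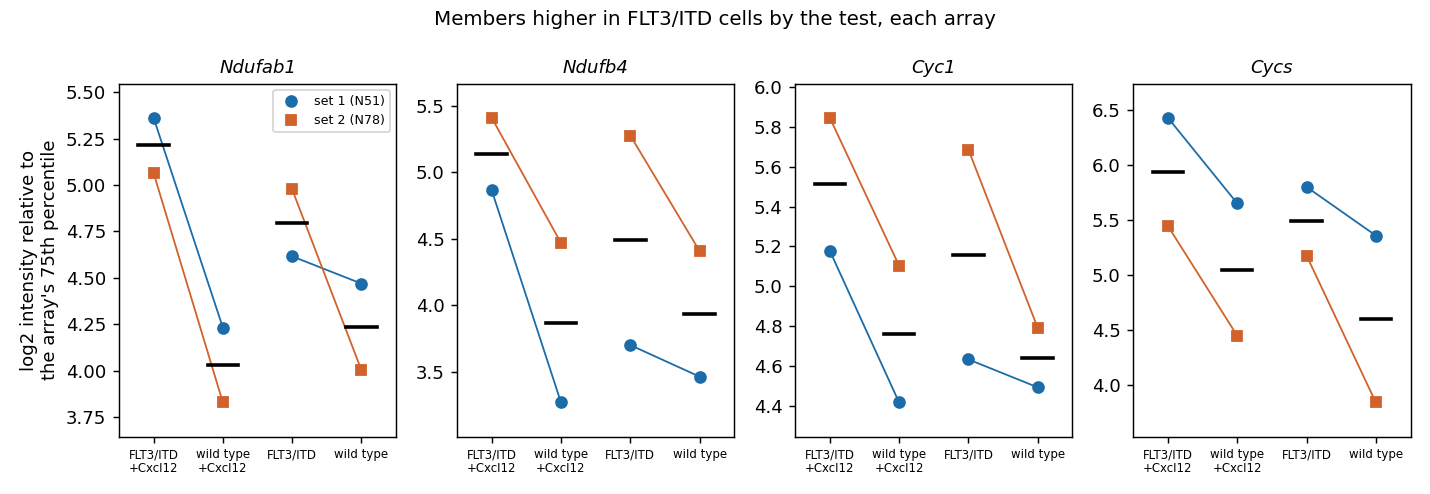
Levels (log2 intensity minus that array's 75th percentile) of the 4 members that rose, on each of the 8 arrays. Blue circles are set 1 (N51) and orange squares set 2 (N78), lines join the FLT3/ITD and wild type FLT3 arrays of a set, and black bars are the mean of the 2 arrays of a group. Every line falls to the right, and the blue lines without Cxcl12 are the flattest, at 0.14 to 0.44.

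Promoter letters are shown for Cycs, Ndufab1 and Ndufb4 because these members rose, and because promoters of this gene set are known for sites of nuclear respiratory factors. Cyc1 also rose, but it had no entry in the promoter table and was not searched. The runs are the 250 bases before the gene's start in RefSeq (GRCm38.p6), 5′ to 3′ in the direction of the gene. Capitals mark letters that match a motif searched on both strands.
Cycs, chr6:50566570-50566819, minus strand: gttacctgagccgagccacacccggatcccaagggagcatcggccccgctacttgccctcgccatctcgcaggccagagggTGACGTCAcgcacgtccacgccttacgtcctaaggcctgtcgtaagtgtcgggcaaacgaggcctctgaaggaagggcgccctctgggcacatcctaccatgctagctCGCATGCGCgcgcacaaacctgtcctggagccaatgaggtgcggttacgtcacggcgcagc
Ndufab1, chr7:122101849-122102098, minus strand: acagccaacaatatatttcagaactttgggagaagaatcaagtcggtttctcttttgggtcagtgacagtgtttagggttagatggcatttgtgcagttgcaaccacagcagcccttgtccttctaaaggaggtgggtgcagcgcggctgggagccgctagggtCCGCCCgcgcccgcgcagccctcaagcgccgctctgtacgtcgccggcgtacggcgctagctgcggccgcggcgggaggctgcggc
Ndufb4, chr16:37654369-37654618, minus strand: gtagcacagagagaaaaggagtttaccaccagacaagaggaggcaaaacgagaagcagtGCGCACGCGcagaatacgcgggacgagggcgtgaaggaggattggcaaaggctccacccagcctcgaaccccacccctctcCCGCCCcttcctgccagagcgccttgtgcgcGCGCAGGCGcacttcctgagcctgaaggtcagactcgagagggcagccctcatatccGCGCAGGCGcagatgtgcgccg
The motifs were GCGCANGCG for NRF1, CCGGAAG for ETS factors such as GABP, AANATGGCG for YY1, CAAGGTCA for oestrogen-related receptors, TGACGTCA for CREB and GGGCGG for the SP1 family. Cycs held the NRF1 letters 61 to 53 bases before its start and the CREB letters 169 to 162 bases before it. Ndufb4 held the NRF1 letters 3 times, at 191 to 183, 79 to 71 and 22 to 14 bases before its start, and the SP1 letters once. Ndufab1 held only the SP1 letters, 86 to 81 bases before its start. With any letter at the fifth position (GCGCNNGCG), an alternative chosen after matches had been seen, the NRF1 letters were also in Ndufab1, at 85 to 71 bases before its start in overlapping matches. So whether Ndufab1 holds them depends on the form searched. The same is true of Cycs, which a longer form searched first did not match.

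Of the 87 members, 73 had an entry in the promoter table. The NRF1 letters were in 16 of the 73 (21.9%), against 12.8% of 9438 genes tested here that had an entry and 5.86% of 27025 genes in the table. The looser form was in 23 of the 73 (31.5%), against 22.2% of the genes tested. By complex, the NRF1 letters in the form GCGCANGCG were in 7 of 36 members of complex I and 2 of 3 of complex II. They were in 1 of 6 of complex III, 1 of 12 of complex IV and 5 of 14 of complex V. The ETS letters were in 17.8% of members against 16.2% of genes tested, and the YY1 letters in 5.48% against 2.66%. The letters for CREB were in 6.85% against 3.05%, those for oestrogen-related receptors in 4.11% against 1.3%, and those for SP1 in 39.7% against 61.7%. These shares describe letters in a window of 250 bases and not binding.

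Complex I had the most members. Of its 40, 2 rose, 0 fell and 38 did not pass the test, and 35 had a positive difference, with a median of 0.32. Here and for complexes II to V, the shares of all genes tested were 3.58% that rose, 2.55% that fell and 49.3% positive. Its 7 nuclear core subunits, which carry the flavin and the iron-sulfur clusters, ran between 0.12 (Ndufv1) and 0.39 (Ndufv2). Their median was 0.34, or 0.07 in set 1 and 0.63 in set 2. The 29 accessory subunits had a median of 0.28, and both members that rose were among them. After Ndufb4 and Ndufab1, the accessory subunit Ndufa11 had the largest difference, 0.82 (SE 0.26, limma adjusted p = 0.0968), which was 0.47 without FLT3/ITD+Cxcl12 replicate 1 and 1.17 without FLT3/ITD+Cxcl12 replicate 2. On the lower side Ndufb5 was at -0.14 (adjusted p = 0.595) and Ndufa2 at -0.03 (adjusted p = 0.935).

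Ndufaf4, an assembly factor of complex I, had the second largest difference of the complex, 0.88 (SE 0.26, limma adjusted p = 0.0735), which did not pass. It had 3.72 in FLT3/ITD cells with Cxcl12 against 2.40 in wild type FLT3 cells with Cxcl12 in set 1, and 1.81 against 1.43 without it. In set 2 it had 2.51 against 1.55 with Cxcl12 and 2.23 against 1.36 without it. The FLT3/ITD array was thus higher in all 4 pairs. A further Ndufaf4 probe, dimmer and not used in the fit by gene, gave 1.11 with a limma adjusted p of 0.0425 in the fit by probe. There p was adjusted over the probes kept, and the brightest Ndufaf4 probe had 0.0709. The other assembly factors named by the rule were Ndufaf2 at 0.46, Ndufaf1 at 0.33 and Ndufaf3 at 0.02, none past the test.

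Complex II, which is also the succinate dehydrogenase of the tricarboxylic acid cycle, had 0 of 4 members past the test and 4 positive differences. Sdhb, the iron-sulfur subunit, was at 0.59 (SE 0.19, limma adjusted p = 0.0924). The membrane anchors Sdhc and Sdhd were at 0.36 and 0.30. Sdha, the flavoprotein, was at 0.26 on its brightest probe, but its other probes gave -0.03 and -0.48, so the direction of Sdha is not settled. Without Cxcl12 in set 1 the pair differences of the 4 members ran between -0.17 and 0.095, and in set 2 between 0.39 and 1.01.

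In complex III, 2 of 10 members rose (Cycs and Cyc1), 0 fell, and 9 were positive with the highest median of the complexes, 0.44. Of all genes tested 3.58% rose, 2.55% fell and 49.3% were positive, and a difference between complexes was not tested. Uqcrq, a small subunit, had a difference of 0.63 (SE 0.17, limma adjusted p = 0.0652) and was higher in FLT3/ITD cells in all 4 pairs. The Rieske iron-sulfur protein Uqcrfs1 was at 0.48 and Uqcr10 at 0.47, both with an adjusted p of 0.106. The core proteins Uqcrc1 and Uqcrc2 were at 0.08 and 0.41, and the hinge protein Uqcrh was at -0.10 (adjusted p = 0.634). The catalytic pair of haem proteins in this complex is cytochrome b, encoded by mitochondrial DNA, and cytochrome c1.

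In complex IV, 0 of 15 members rose or fell and the median was 0.20. Cox6b1, a subunit at the face that docks cytochrome c, had the largest difference, 0.78 (SE 0.22, limma adjusted p = 0.0716). It was at 1.51 in FLT3/ITD cells with Cxcl12 against -0.22 in wild type FLT3 cells with Cxcl12 in set 1, and at 0.08 against 0.13 without it. In set 2 it was at 3.83 against 3.19 with Cxcl12 and 3.71 against 2.91 without it. So 3 of the 4 pairs were higher in FLT3/ITD cells and the N51 pair without Cxcl12 was not. Cox8a was lower in FLT3/ITD cells in all 4 pairs, the one member of which this held, but only by 0.14 (adjusted p = 0.44).

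Several complex IV subunits exist as a widely expressed form and a tissue form, and 3 tissue forms were measured. The heart and muscle isoform Cox6a2 was at 0.70 (adjusted p = 0.0862), with -1.91 and -3.02 in FLT3/ITD cells with Cxcl12 against -2.76 and -3.24 in wild type FLT3 cells with Cxcl12. Without Cxcl12 it had -1.51 and -2.43 in FLT3/ITD cells against -2.66 and -2.98 in wild type FLT3 cells. Each FLT3/ITD value was above that of its pair, but with normexp background correction the difference turned to -0.061. Cox6a1, the widely expressed form, was at -0.01. The muscle isoform Cox7a1 was at 0.39 (adjusted p = 0.195), beside 0.30 for Cox7a2. The testis isoform Cox6b2 was at -0.31 (adjusted p = 0.332), the lowest difference of all 87 members. Its probe was dim, with levels between -3.37 and -0.86 over the arrays.

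In complex V, 0 of 15 members rose or fell and 14 were positive, with a median of 0.22. The catalytic head (F1) had a median of 0.16 over 5 members. Its gamma subunit Atp5c1, the rotor shaft, was at 0.59 (adjusted p = 0.0698), the alpha and beta subunits Atp5a1 and Atp5b were at 0.19 and 0.13, and the epsilon subunit Atp5e was at -0.03. The membrane part and stalk had a median of 0.25 over 10 members.

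The membrane ring is made of subunit c, which 3 genes encode with the same mature protein. Atp5g1 was at 0.69 (SE 0.18, limma adjusted p = 0.0547), Atp5g3 at 0.37 and Atp5g2 at 0.12. Atp5g1 had 4.64 in FLT3/ITD cells with Cxcl12 against 3.82 in wild type FLT3 cells with Cxcl12 in set 1, and 3.89 against 3.81 without it. In set 2 it had 5.70 against 4.96 with Cxcl12 and 5.63 against 4.49 without it. FLT3/ITD was higher in all 4 pairs, by least in the N51 pair without Cxcl12. Atp5k, the small subunit e, had the largest estimate of complex V, 0.73, with the largest SE, 0.33 (adjusted p = 0.2). It was 0.21 without FLT3/ITD+Cxcl12 replicate 1 and 1.25 without FLT3/ITD+Cxcl12 replicate 2.

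The 4 pairs of arrays did not show the same difference. With Cxcl12 the median over the 87 members was 0.44 in set 1 and 0.34 in set 2. There 73 (83.9%) and 77 (88.5%) members were positive, against 54.1% and 53.8% of all genes tested. Without Cxcl12 the members' median was 0.52 in set 2, with 80 positive (92.0%, against 50.3% of all genes). But it was -0.10 in set 1, with 22 positive (25.3%, against 38.2% of all genes). In that last pair, FLT3/ITD N51 against wild type FLT3, the median over all genes tested was also -0.10. In the other 3 pairs the median of all genes lay between 0.00 and 0.05. Over the 4 pairs, 16 of 87 members (18.4%) were higher in FLT3/ITD cells in all 4 pairs, close to the 16.5% of all genes tested, and 1 member (1.15%) was lower in all 4, against 17.3%.

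**Figure D3:**
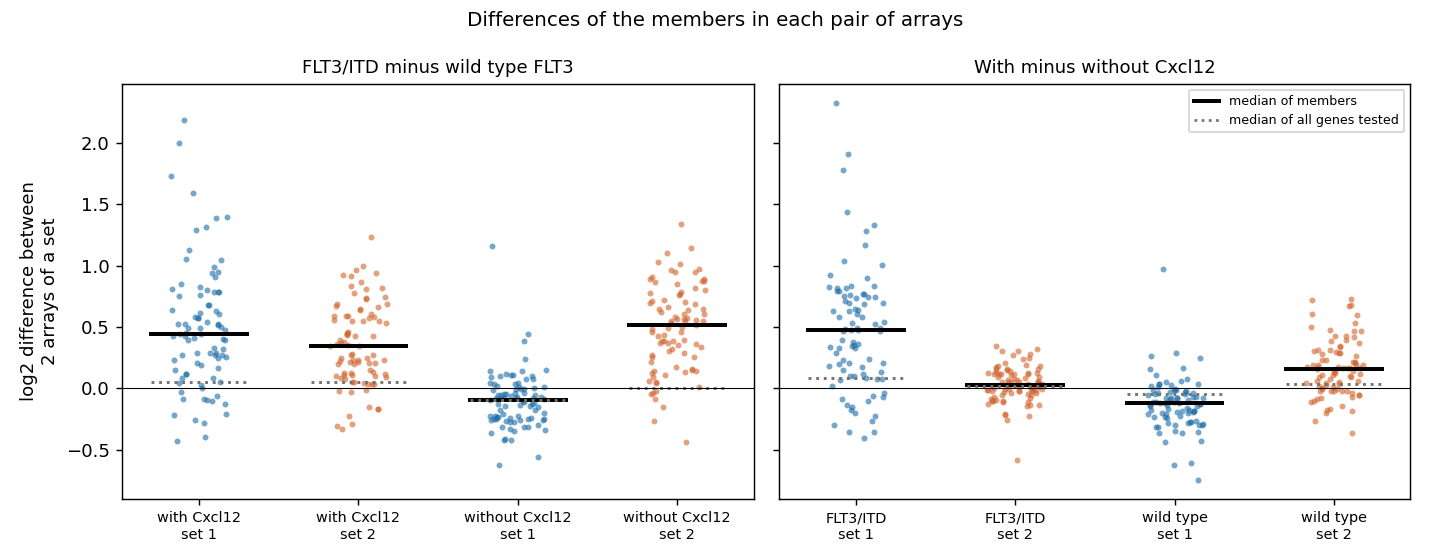
Log2 differences of the 87 members between 2 arrays of the same set, FLT3/ITD minus wild type FLT3 on the left and with minus without Cxcl12 on the right. Each point is a member, blue in set 1 and orange in set 2, black bars are the median of the members and dotted grey bars that of all genes tested. The members' median is 0.34 to 0.52 in 3 of the ITD pairs and -0.10 in set 1 without Cxcl12, and among the Cxcl12 pairs it is highest, 0.47, in FLT3/ITD cells of set 1.

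The 16 members higher in all 4 pairs were Ndufab1, Ndufb4, Ndufaf4, Ndufs8, Ndufa11, Ndufa3 and Ndufb6 of complex I, Cycs, Cyc1 and Uqcrq of complex III, Cox5a, Cox6a2, Cox7a1 and Cox7c of complex IV, and Atp5g1 and Atp5k of complex V. The number of members that rose in the average depended on each array. It was 13 without the FLT3/ITD replicate 1 array (N51, no Cxcl12), 10 without FLT3/ITD+Cxcl12 replicate 2 and 9 without wild type FLT3 replicate 1. It was 1 without FLT3/ITD+Cxcl12 replicate 1. It was 0 without FLT3/ITD replicate 2, wild type FLT3 replicate 2 or either wild type FLT3+Cxcl12 array. The median of the members lay between 0.17 (without FLT3/ITD replicate 2) and 0.40 (without FLT3/ITD replicate 1) in these 8 fits.

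By themselves, neither Cxcl12 state had a member past the test. With Cxcl12, 0 of 87 rose or fell by limma, where 0.507% of all genes rose and 0.347% fell, and 28 members (32.2%) were higher at an unadjusted p under 0.05, against 10.8% of all genes, and 0 lower, against 7.31%. The median was 0.40 and 80 members were positive (92.0%, against 54.4% of all genes). Ndufb4 at 1.27 and Ndufab1 at 1.18 both had a limma adjusted p of 0.061. Atp5k was at 1.22 (adjusted p = 0.216), Cox6b1 at 1.19 (adjusted p = 0.113) and Cycs at 0.89 (adjusted p = 0.112). Without FLT3/ITD+Cxcl12 replicate 2, 4 members passed here. Without Cxcl12, 0 of 87 rose or fell, where 0.289% of all genes rose and 0.232% fell, and 5 members (5.75%) were higher at an unadjusted p under 0.05, against 5.95% of all genes, and 0 lower, against 6.25%. The median was 0.21, 68 members were positive (78.2%, against 45.0% of all genes), and Cycs was again at 0.89 (adjusted p = 0.174). The median without Cxcl12 was 0.39 or 0.40 when either set 1 array of that state was left out, and 0.015 or -0.04 when either set 2 array was.

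The 2 ITD forms came with the sets. In set 2 (N78) the average ITD difference had a median of 0.38 and was positive in 79 members. In set 1 (N51) it had a median of 0.15 and was positive in 65. Of the 13817 genes tested, 7147 were positive in set 2 and 6399 in set 1. The set 2 difference was the larger one in 64 of 87 members (73.6%), against 54.2% of all genes tested. Ndufb4 had a similar average in both, 0.90 in set 2 and 0.92 in set 1. The set 1 average joins 1.59 with Cxcl12 and 0.24 without it, where set 2 had 0.94 and 0.87. Atp5k and Cox6a2 were larger in set 1, and Ndufa10 was at 1.01 in set 2 and -0.04 in set 1. The difference between the sets was not tested.

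**Figure D4:**
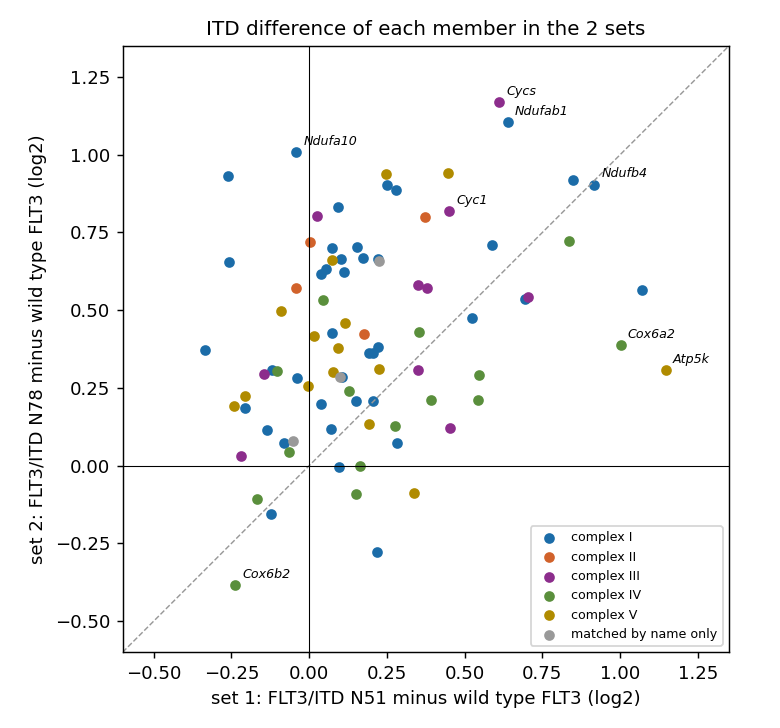
Average log2 difference between FLT3/ITD and wild type FLT3 cells of each of the 87 members in set 1 (N51, x axis) and in set 2 (N78, y axis), coloured by complex, with the dashed line of equality. Most points lie above that line, 64 of 87, and Ndufb4 lies near it at 0.90 in set 2 and 0.92 in set 1.

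The second question was whether Cxcl12 changes these mRNAs. Over both kinds of cells 0 of 87 members rose or fell by limma, where 0.152% of all genes rose and 0.232% fell. At an unadjusted p under 0.05, 6 members were higher (6.9%, against 8.64% of all genes) and 0 lower (against 6.43%). The median difference, with minus without Cxcl12, was 0.13, against 0.02 over all genes, and 67 members were positive (77.0%, against 52.7% of all genes). With normexp background correction the median turned to -0.23 and 11 members were positive. That correction had an outlying background estimate on the wild type FLT3+Cxcl12 array of set 2, -1149 units of intensity. With foreground minus local background plus 50, an alternative chosen after seeing the data, the median was 0.12. In the main setting it was 0.01 without FLT3/ITD replicate 1, 0.03 without wild type FLT3 replicate 2 and 0.09 without FLT3/ITD+Cxcl12 replicate 1. It was 0.23 without FLT3/ITD replicate 2 and 0.21 without wild type FLT3 replicate 1.

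The highest Cxcl12 difference was that of Ndufaf4, 0.84 (SE 0.26, limma adjusted p = 0.174), the values of which are given above. Atp5k was at 0.70 (SE 0.33, adjusted p = 0.363). It had 4.17 in FLT3/ITD cells with Cxcl12 against 1.84 in those without in set 1, and 5.24 against 5.18 in set 2, while in wild type FLT3 cells it had 1.98 against 1.74 in set 1 and 4.996 against 4.81 in set 2. So most of the difference came from the FLT3/ITD pair of set 1. Ndufa11, at 0.62 (adjusted p = 0.317), also differed most in that pair, 1.22 against -0.56, but had 3.29 against 2.69 in wild type FLT3 cells of set 2 as well. Cycs was at 0.45 (adjusted p = 0.241) with a positive difference in all 4 pairs.

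On the lower side Cox6a2 was at -0.34, Cox6b2 at -0.27 and Ndufv3 at -0.26, none past the test. In complex II the Cxcl12 differences ran between 0.00 for Sdhc and 0.24 for Sdhb. In complex III they ran between -0.06 for Uqcrh and 0.45 for Cycs, with Uqcrc2 at -0.05 and Uqcrb, a ubiquinone-binding subunit, at 0.37. In complex V Atp5j, coupling factor 6 of the stalk, was at 0.41 and Atp5f1, the stalk subunit b, at -0.03. By pairs, 12 of 87 members (13.8%) were higher with Cxcl12 in all 4, against 16.3% of all genes, and 2 (2.3%), Cox6a2 and the supercomplex factor Cox7a2l, were lower in all 4, against 13.0%.

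Within FLT3/ITD cells 0 of 87 members passed, where 0.0% of all genes rose and 0.0% fell, and 6 members were higher at an unadjusted p under 0.05 (6.9%, against 6.8% of all genes) and 0 lower (against 3.76%). The difference was positive in 69 members (79.3%, against 57.1% of all genes). The median was 0.26, made of 0.47 in set 1 and 0.03 in set 2. It was 0.015 without FLT3/ITD replicate 1 and 0.51 without FLT3/ITD replicate 2. Within wild type FLT3 cells 0 of 87 passed, where 0.00724% of all genes rose and 0.0579% fell, and 0 members were higher at an unadjusted p under 0.05, against 2.96% of all genes, and 0 were lower, against 4.16%. The difference was positive in 43 members (49.4%, against 48.6% of all genes). The median there was 0.00, with -0.12 in set 1 and 0.16 in set 2. It was -0.15, with 18 members positive, without wild type FLT3 replicate 2, and 0.18, with 68 positive, without wild type FLT3 replicate 1. With normexp background correction it was -0.70, with 5 positive. That correction had an outlying background estimate on the wild type FLT3+Cxcl12 array of set 2, -1149 units of intensity. With foreground minus local background plus 50, an alternative chosen after seeing the data, the median was 0.008.

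The difference between the Cxcl12 responses of the cells, FLT3/ITD minus wild type FLT3, was tested as an interaction. By limma 0 of 87 members passed (0.0% of all genes rose and 0.0% fell), and 0 were higher at an unadjusted p under 0.05, against 1.43% of all genes, and 0 lower, against 0.333%. It was positive in 70 members (80.5%, against 59.1% of all genes). By set, 78 of 87 members were positive in set 1 and 23 in set 2, against 8644 and 6568 of 13817 genes tested. The members' median was 0.23, with 0.53 in set 1 and -0.13 in set 2. Without FLT3/ITD replicate 1 it was 0.01, and without wild type FLT3 replicate 1 it was 0.00. Without FLT3/ITD replicate 2 it was 0.45, and without wild type FLT3 replicate 2 it was 0.42. The Cxcl12 and ITD comparisons share arrays, and each of the 8 arrays enters both averages and the interaction. In set 1 the members' median was 0.44 for ITD and 0.47 for Cxcl12 in the pairs with the FLT3/ITD+Cxcl12 array. In the other set 1 pairs it was -0.10 for ITD and -0.12 for Cxcl12.

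Of the genes with several usable probes, 29 in all, 8 had a probe with the opposite sign in the average ITD difference. They were Atp5a1, Atp5b, Atp5j2, Atp5sl, Ndufb2, Ndufc1, Ndufv2 and Sdha. Of the 4 members that rose, Cyc1 and Ndufb4 had 1 usable probe each, and the probes of Cycs and Ndufab1 had the same sign. The direction of these 8 genes is not settled by their brightest probe.

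Other genes of mitochondrial energy metabolism were counted from lists, which were chosen with earlier results of these data known. In the average ITD difference 3.58% of all genes tested rose, 2.55% fell and 49.3% were positive, with a median of -0.01. Of 43 assembly and import factors of the respiratory chain outside the rule, 40 were measured, and 3 rose, 0 fell and 37 did not pass in the average ITD difference, with a median of 0.35. Cox10, which makes the haem of complex IV, rose by 0.97 (SE 0.24, limma adjusted p = 0.0483). Ttc19, a complex III factor, rose by 0.81 (SE 0.20, adjusted p = 0.0483) and Sdhaf1, a complex II factor, by 0.77 (SE 0.18, adjusted p = 0.0443). Of 8 measured carriers and porins 1 rose, Slc25a5, an ADP/ATP translocase, by 0.54 (SE 0.13, adjusted p = 0.0451), and the median was 0.32. Of 19 genes of the tricarboxylic acid cycle and pyruvate dehydrogenase 0 passed, 18 were positive and the median was 0.29. Of 17 measured regulators of mitochondrial biogenesis 0 passed, with a median of 0.09.

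Subunits encoded by mitochondrial DNA were measured for 3 of 13 genes, and 0 passed. The average ITD differences were -0.33 for mt-Nd4 of complex I, -0.30 for mt-Cytb of complex III and -0.20 for mt-Atp6 of complex V. So the 3 averages were negative where the median of the nuclear members was positive, and no test was made of that contrast. By set, mt-Nd4 had -0.10 in set 1 and -0.56 in set 2, mt-Cytb -0.035 and -0.56, and mt-Atp6 -0.41 and 0.006. In set 2 the FLT3/ITD array without Cxcl12 had mt-Nd4 at 5.17, against 6.24 to 6.28 on the other arrays of that set. It had mt-Cytb at 6.66, against 7.44 to 7.62. With Cxcl12 the median ITD difference of the 3 was -0.08, and 1 was positive. In none of these lists did a gene pass in the average Cxcl12 difference.

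Markers of other cells were also measured. Ckm, the muscle creatine kinase, rose by 0.68 (SE 0.16, limma adjusted p = 0.0443), while Ucp1, Myh4 and Mb were well above background on 0 of 8 arrays. Of the pro-B list, Csf2rb2, a beta chain of the IL3 receptor, and Ptprc fell by 0.59 and 0.55 (limma adjusted p = 0.0323 and 0.0435). Cd79a, Cd79b, Vpreb1, Vpreb2 and Il3ra did not pass. Of T cell, erythroid, and monocyte and macrophage markers 3, 1 and 3 were measured and 0 passed, and 0 of 3 stromal markers were measured. The part of these markers in the differences of the members was not tested.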

How the data were processed

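RNA of the 8 Ba/F3 samples was hybridised to Agilent mouse arrays with the dye Cy3, 1 array per sample. Per the file headers, the processed intensity deposited by the authors had been background-subtracted array by array in Agilent's Feature Extraction software (set 1 in version 9.5.1.1, set 2 in 10.7.3.1), with no scaling between arrays. The deposited flags, which are other marks per spot, gave the outlier, saturation and background calls. The authors' normalized tables hold a signal per probe, deposited on a linear scale, and were used as an alternative.

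Control spots and outlier spots (93 to 203 per array) were left out and spots of a probe averaged. Log2 was taken and each array's 75th percentile subtracted (919 to 1086 in set 1 and 360.0 to 579 in set 2, in units of intensity). The number of arrays limits the precision. Of 41174 probes, 21113 passed the filter (well above background on both arrays in some group), and the brightest stood for its gene. Genes were named from the set 2 annotation through the RefSeq gene table (GRCm38.p6), by accession (27198 probes), symbol (5590), synonym (721) or the file's name alone (1330). The other 6335 probes had none, and 1780 of the 13817 genes tested are such unnamed transcripts. Only 2 usable probes carried a member's name in the older set 1 annotation alone and were left out. Probe positions come from the set 2 files (mm9). No genome was used here. One marker of the pro-B list is not reported here.

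All arrays were fitted with limma 3.58.1 (R 4.3.3), with 4 group means, the slide as a block and an intensity trend, with 3 degrees of freedom for the residuals. Arrays are paired by slide, as the file headers give it, and deviations from group means correlated between arrays on 1 slide at 0.73 to 0.878. The fit was tested on simulated data. The 7 comparisons were ITD with and without Cxcl12, Cxcl12 in each kind of cell, both averages and the interaction. Members, lists and motifs were chosen with earlier results of these data known, and the NRF1 letters were shortened after matches had been seen, the longer form having matched Ndufab1 and not Cycs. Named genes were those past the test, the 2 highest and 2 lowest of each complex in either average, members at least 2-fold different in both sets, tissue isoforms, and up to 4 passing genes of each list. Alternatives were another background correction, scaling, filter, choice of probe, block and prior, the authors' tables, only the groups compared, and leaving out each array.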

Additional observations from a re-analysis of the deposited data

Results flagged for a closer look

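In 4 named members the average ITD difference had opposite directions in the 2 sets, with and without Cxcl12 alike, and the difference between the sets was not tested. The values are set 2 (N78) minus set 1 (N51) of that difference. Uqcrc1, a core protein of complex III, was at 0.441, with 0.30 in set 2 and -0.15 in set 1. Atp5e, the epsilon subunit of ATP synthase, was at 0.434, with 0.19 and -0.24. Atp5f1, its stalk subunit b, was at 0.431, with 0.23 and -0.20. Ndufa6, an accessory subunit of complex I, was at 0.322, with 0.28 and -0.04. Such opposite directions were found in 8 of 87 members (9.2%), against 13.1% of all genes tested.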

How the results depend on the processing

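In the average ITD difference 4 members passed, and 0 did without the filter on dim probes, without the intensity trend in eBayes, and with no replicate block. Under the other alternatives between 3 and 5 passed. With normexp background correction 3 passed (Ndufaf4, Ndufa11 and Cox6b1) and the median of the members was 0.67. That correction also gave a median Cxcl12 difference of -0.23. Its background estimate on the wild type FLT3+Cxcl12 array of set 2 was -1149 units of intensity, against -18.2 to 8.10 on the other 7 arrays. Foreground minus local background plus 50, an alternative chosen after seeing the data, gave 4 members and medians of 0.31 for ITD and 0.12 for Cxcl12. For ITD with Cxcl12, where 0 passed, 2 passed with normexp, with the set as a random block, and with only the 2 groups compared. Without each array in turn the count was 0 to 13 for the average ITD difference, 0 to 4 for ITD with Cxcl12, and 0 to 1 for the average Cxcl12 difference and for Cxcl12 in FLT3/ITD cells. In the remaining comparisons 0 members passed under all alternatives run. Some ITD differences that had not passed changed sign. With normexp they were Ndufb5 at 0.13, Atp5e at 0.39, Ndufa2 at 0.40, Uqcrh at 0.29, Cox8a at 0.28 and Cox6a2 (0.70 in the main setting) at -0.061. With quantile normalization they were Uqcrc1 at -0.066, Atp5f1 at -0.12 and Ndufa6 at -0.018. Atp5f1 was at -0.011 with the local background subtracted, and Sdha at -0.081 with the mean of its probes. Without each array in turn Uqcrc1 ran between -0.076 and 0.23, Atp5f1 between -0.093 and 0.11, Atp5e between -0.15 and 0.10, Ndufa2 between -0.24 and 0.18 and Ndufa6 between -0.034 and 0.28. The cause was not tested. The 87 members were well above background on all 8 arrays, and the number of arrays limits the precision.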
